A study of Mus musculus with 4 samples.

Results

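Genes of mitosis and chromosome segregation were followed in mouse peritoneal macrophages, as a list of 55 G2/M genes drawn from the 15298 genes of the expression table. All 55 listed genes were in the table and were kept without an expression filter. The list was named by function with earlier results of the same 4 libraries known, so the values below describe the genes and test nothing about the choice. The study examined what abdominal microcurrent stimulation (MCS), a weak pulsed current, does to peritoneal macrophages, and sequenced 4 libraries, namely control and MCS at zeitgeber time (ZT) 2 and at ZT14. The mice were 6-week-old female BALB/c. MCS was given for 15 min at ZT2 under isoflurane through electrode pads on the abdomen and back, and ZT14 lies 12 h later. Control mice, which the labels call untreated, went through anesthesia and pad placement with no current. Cells were sorted as CD11b+ F4/80+ Ly6G-, and libraries were made from RNA depleted of ribosomal RNA. Each condition was 1 library, and how many mice contributed to each is not stated in the labels or the methods. No value therefore has replicate error, and single comparisons were not tested. A count test of terms common to all 4 libraries is given as an alternative. All intervals in the text are 95% intervals for counting error only. Where 4 levels are given in a row without further words, they stand for control at ZT2, MCS at ZT2, control at ZT14 and MCS at ZT14, in that order.

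In mitosis, Cdk1 with its B-type cyclins drives cells from G2 into division, chromosomes condense, and kinetochores attach them to the spindle. The spindle checkpoint holds back the anaphase-promoting complex (APC/C) until every chromosome is attached, after which chromatids separate and the cell divides through a contractile ring. Most of these genes are transcribed periodically and are low in resting cells, which is why their mRNA is widely read as a mark of cycling cells. Resident peritoneal macrophages are known to maintain themselves largely by local division.

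The 4 libraries held between 8365590 and 9953243 reads, and 1 read was worth between 0.102 and 0.116 CPM (counts scaled to library size). Macrophage identity was checked with 8 markers, all of which were detected in every library. Their summed levels were 25788, 24956, 24966 and 27436 CPM. The macrophage label therefore held, although B cell markers (965 to 1400 CPM) and mast cell markers (952 to 2240 CPM) were present in all libraries despite the sort.

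The mitosis genes were lowest in the control library at ZT14. Their summed level was 542 CPM (interval 527 to 558) in control at ZT2, 559 CPM (544 to 575) in MCS at ZT2, 378 CPM (365 to 390) in control at ZT14 and 515 CPM (501 to 530) in MCS at ZT14. The interval of control at ZT14 lay below those of the other 3 libraries, whose highest and lowest sums differed 1.09-fold. Of the 55 genes, 47 (85.5%) had their lowest level in control at ZT14, where 23.0% of the 12511 genes above a mean of 1 CPM had theirs. The exceptions were *Cks2*, lowest in control at ZT2 (20.1% of all genes), *Aurka*, *Bub3* and *Ncaph*, lowest in MCS at ZT2 (25.9% of all genes), and *Cdc25c*, *Hmmr*, *Kif2c* and *Ndc80*, lowest in MCS at ZT14 (31.0% of all genes). In bulk RNA, fewer dividing cells and less of these mRNAs per cell cannot be told apart.

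**Figure D1:**
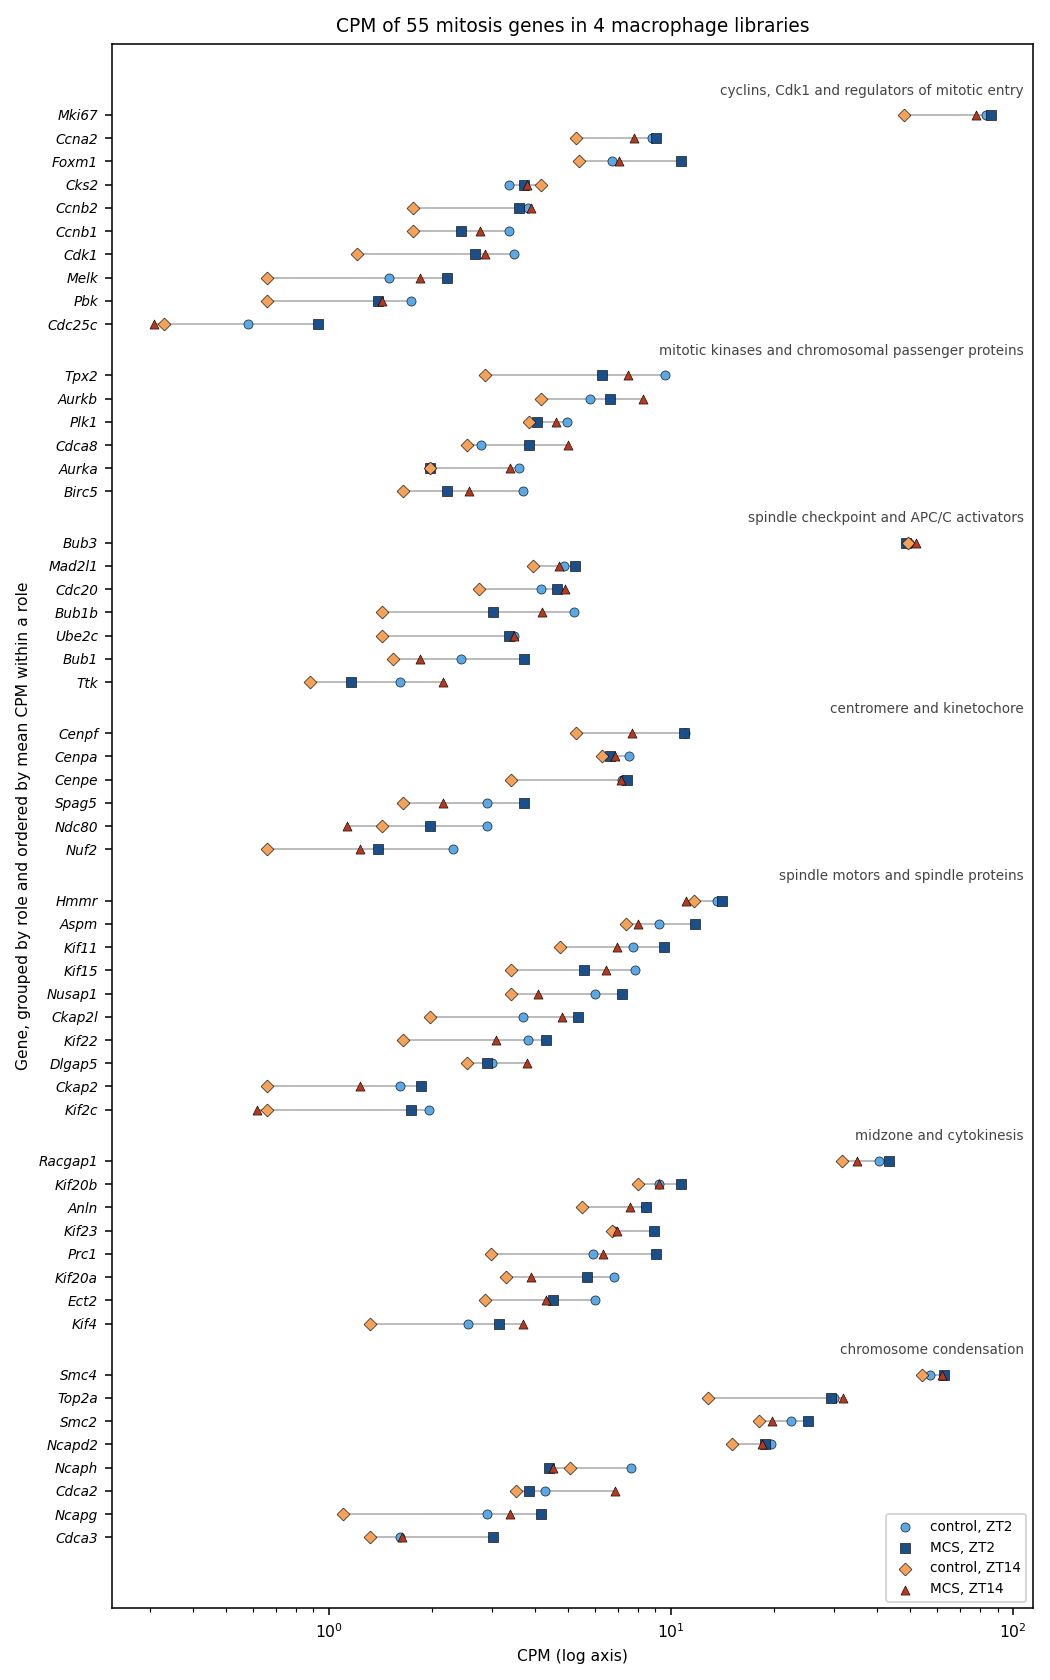
CPM of each of the 55 mitosis genes (log axis) in the 4 libraries, 1 marker per library, grouped by role and ordered by mean CPM within a role. The orange diamonds, control at ZT14, are the leftmost marker for 47 of the 55 genes.

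Most of these genes were of low abundance. The mean level over the 4 libraries ran from 0.535 CPM for *Cdc25c* to 73.8 CPM for *Mki67*, with a median of 4.42 CPM against 14.4 CPM for all genes in the table. No gene was at 0 in any library, but the reads behind a value ranged from 3 to 759, and 47 of the 55 genes had a mean below 10 CPM. The counting intervals of single low genes are accordingly wide. Per kilobase of the longest coding transcript, *Bub3* was the most abundant at a mean of 14.6 CPM per kb, followed by *Smc4* at 13.7 and *Racgap1* at 12.3. *Mki67* came next on this scale at 7.34 CPM per kb, with a transcript of 10061 bases.

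MCS was compared with control at ZT14, 12 h after stimulation. The summed level was 1.36-fold higher in MCS, a log2 ratio of 0.45 (0.39 to 0.51). The median log2 ratio of the single genes, computed on CPM plus 0.1, was 0.56 with quartiles of 0.21 and 0.99, and that of all genes in the table was -0.0042. Of the 55 genes, 49 had a higher value in MCS, where 48.7% of all genes did. Of the 51 mitosis genes with a log2 mean above 0, 14 were more than 2-fold higher and 0 were more than 2-fold lower. Among all 12368 genes past this minimum, 1.84% were more than 2-fold higher and 1.57% more than 2-fold lower. The count rests mostly on genes of few reads. It was 5 of 51 with a pseudocount of 1 CPM (0.897% of all genes higher), and 1 of the 9 with a log2 mean above 3 (0.578%). The counting interval excluded no change in 21 genes, all higher, against 18.7% of all genes higher and 18.9% lower. *Pbk* (1.01) and *Cenpe* (1.05) lay just inside the 2-fold line, and *Aurkb* (0.97) and *Cdca8* (0.96) just outside. Of the 14 genes, *Pbk* had an interval that included no change.

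At ZT2, the time of stimulation itself, MCS and control differed little over the list as a whole. The summed level gave a log2 ratio of 0.04 (-0.01 to 0.10), and the median of single genes was 0.04 against 0.0050 for all genes. A higher value in MCS was found in 30 of the 55 genes, against 51.9% of all genes. None of the 54 mitosis genes past the minimum differed more than 2-fold, against 1.44% of all genes higher and 0.769% lower. The nearest were *Cdca3* at 0.86 and *Aurka* at -0.83. The counting interval excluded no change in 2 higher genes, *Foxm1* and *Prc1* (background 11.5%), and in 3 lower genes, *Bub1b*, *Ncaph* and *Tpx2* (background 11.0%). The log2 ratio of the sum was larger at ZT14 than at ZT2 by 0.40 (0.32 to 0.49, counting error). Without *Mki67* this difference was 0.36, and for the 50 genes beyond the 5 most abundant it was 0.46.

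**Figure D2:**
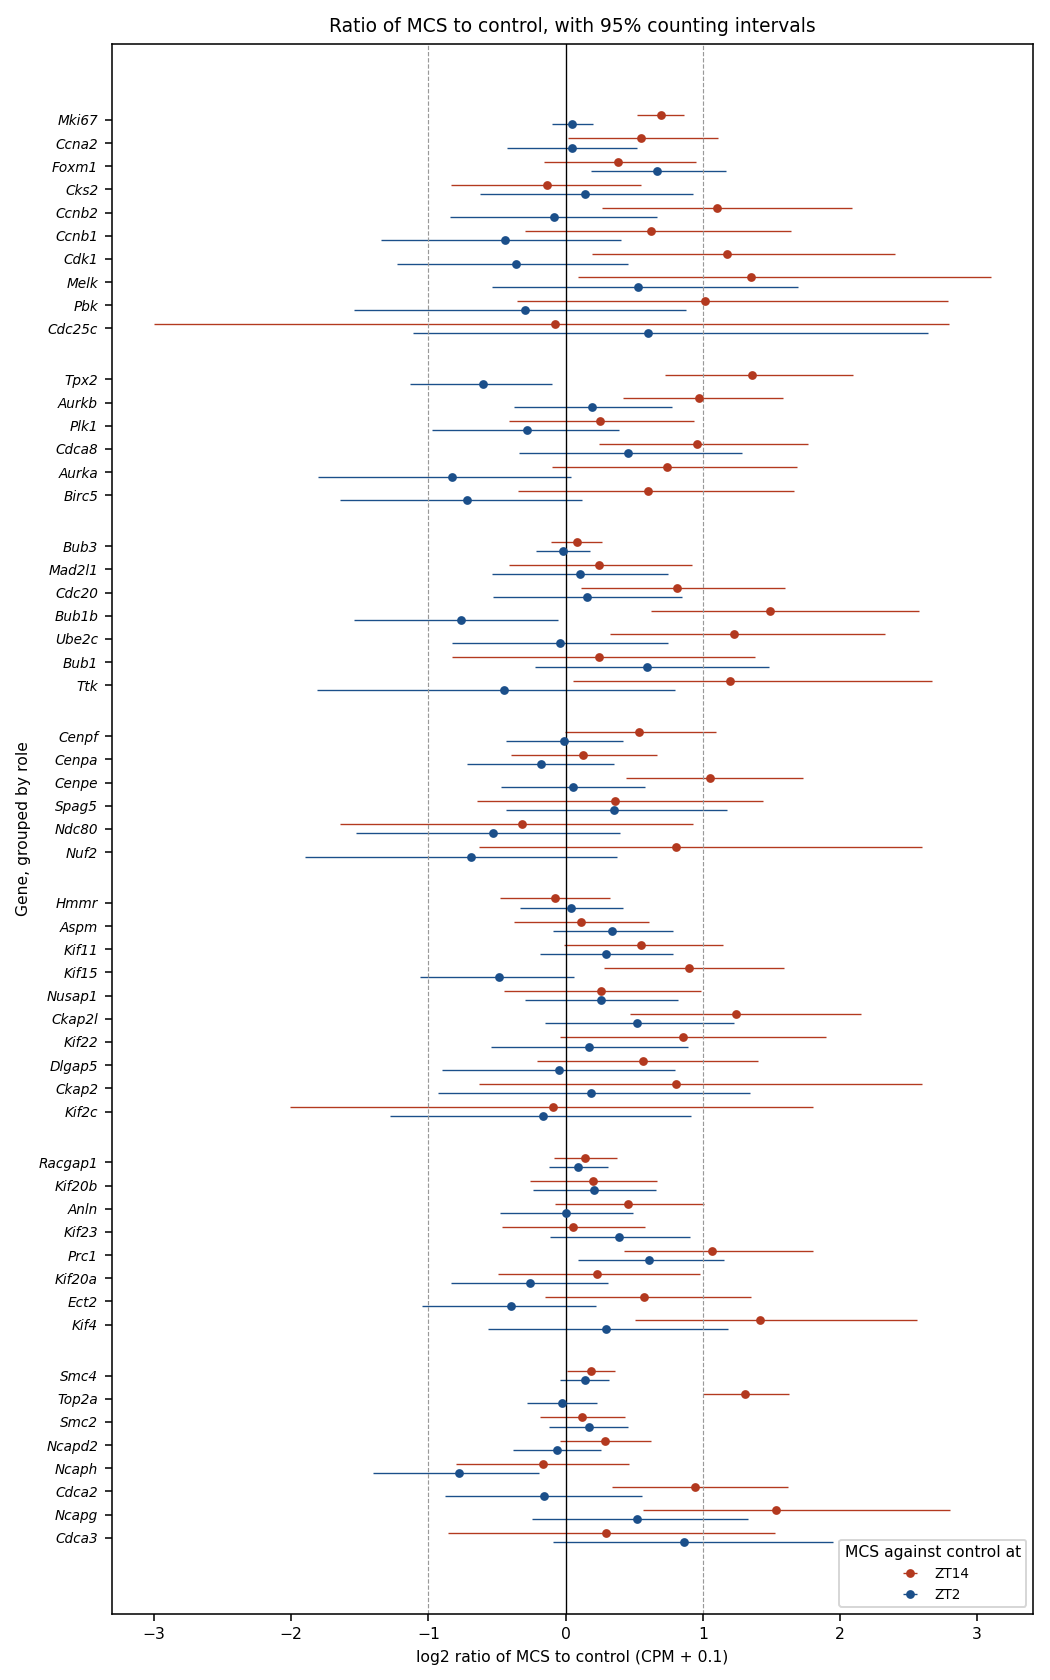
Log2 ratio of MCS to control for each of the 55 genes at ZT14 (red) and ZT2 (blue), with 95% counting intervals, on CPM plus 0.1. Dashed lines mark a 2-fold ratio. At ZT14 49 of 55 points lie above 0, and at ZT2 30 of 55 do.

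The same genes were compared between times of day. In control, the summed level was 1.44-fold higher at ZT2 than at ZT14, a log2 ratio of 0.52 (0.46 to 0.59), and the median of single genes was 0.80 against 0.015 for all genes. All genes but *Cks2* (-0.31) had the higher value at ZT2, 54 of 55, where 51.8% of all genes did. Of 54 genes past the minimum, 19 were more than 2-fold higher at ZT2 and 0 lower, against 2.42% and 1.19% of all genes. The count was 5 with a pseudocount of 1 CPM (1.16% of all genes higher), and 2 of the 11 with a log2 mean above 3 (0.915%). The interval excluded no change in 27 genes, all higher at ZT2, against 13.6% higher and 15.9% lower among all genes. *Kif20a* (1.03) and *Cenpf* (1.04) lay just inside the 2-fold line, and *Ndc80* and *Prc1* (both 0.97) just outside. This comparison and that of MCS with control at ZT14 share the control library at ZT14, so they are not independent of each other and both rest on its low values.

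In the MCS libraries the time difference was smaller. The summed level gave a log2 ratio of ZT2 to ZT14 of 0.12 (0.06 to 0.18), and the median was 0.15 against 0.029 for all genes. Higher values at ZT2 were found in 32 of the 55 genes, against 52.8% of all genes. *Kif2c*, a microtubule-depolymerizing kinesin, was the 1 gene more than 2-fold higher at ZT2 (1.37), against 3.96% of all genes higher and 1.87% lower, while *Bub1* (0.97) and *Cdca3* (0.84) lay closest below the line. The interval excluded no change in 10 higher genes, against 21.9% of all genes, and in 1 lower gene, *Cdca2* (-0.82), against 22.2%.

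A count test over all 4 libraries fitted a common effect of MCS to both times, with 1 residual degree of freedom. That residual holds any difference of the MCS ratio between the times, so a shift at ZT14 alone counts as error. The test therefore cannot decide on such a shift. It called none of the 54 mitosis genes tested. For the MCS term of edgeR's quasi-likelihood test, 24 of 12404 genes passed an adjusted p under 0.05 (0.193%), and 5 mitosis genes, all higher, had an unadjusted p under 0.05, against 2.45% of all genes. For the time term 295 genes passed (2.38%), 0 of them mitosis genes, and 9 mitosis genes, all higher at ZT2, had an unadjusted p under 0.05, against 10.4% of all genes.

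The promoters of several of the genes are shown for the letters they share, which the choice of the list did not use. G2/M genes are known to be controlled through the cell cycle genes homology region (CHR element), bound by the DREAM and MuvB complexes, and through CCAAT boxes, bound by NF-Y. RefSeq promoter windows (GRCm38.p6, from 250 bases before to 50 after the transcription start) were found for 45 of the 55 genes, 48 promoters in all. A CHR element (TTTGAA or TTCGAA, both strands searched) was present in 39 of the 48 (81.2%), against 14.1% of 14407 promoters of other genes in the table and 19.2% of all 32851 promoters. In the 200 bases before the start alone, the stretch printed here, it was present in 43.8% against 9.30% of the other genes' promoters. A CCAAT box (CCAAT, both strands) was present in 77.1%, against 37.3% and 37.4%. Both motifs were in 70.8% of the mitosis promoters and in 5.57% of those of the other genes. A CHR element lay within 50 bases of the start in 34 of the 48 promoters (70.8%), against 3.42%. E2F-type sites (TTTCCCGC, TTTGGCGC or TTTCGCGC) were in 8.33% against 3.05%, TATA boxes (TATAAA) in 2.08% against 7.94% and E-boxes (CACGTG) in 4.17% against 9.28%, each on both strands. A match is a description of the letters and not evidence of binding. The 200 bases before the start are given 5′ to 3′ on the gene's strand for 6 genes, at chr10:69352913-69353112 on the minus strand for *Cdk1*, chr2:164769729-164769928 on the plus strand for *Ube2c*, chr11:99024190-99024389 on the minus strand for *Top2a*, chr7:135716380-135716579 on the minus strand for *Mki67*, chr7:131560170-131560369 on the plus strand for *Bub3* and chr11:117849037-117849236 on the plus strand for *Birc5*. *Cdk1*, *Ube2c*, *Top2a* and *Mki67* carry both motifs and were lowest in control at ZT14, *Bub3* carries both and was nearly level, and *Birc5*, with neither in the stretch shown, was also lowest in control at ZT14. *Ccnb1*, not printed, holds neither TTTGAA nor TTCGAA in its window and was lowest there too. Capitals mark CHR elements (also as TTCAAA, the other strand) and CCAAT boxes (also as ATTGG).
Cdk1: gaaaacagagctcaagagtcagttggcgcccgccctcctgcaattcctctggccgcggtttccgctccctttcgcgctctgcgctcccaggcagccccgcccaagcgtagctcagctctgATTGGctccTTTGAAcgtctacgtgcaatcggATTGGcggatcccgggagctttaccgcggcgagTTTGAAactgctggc
Ube2c: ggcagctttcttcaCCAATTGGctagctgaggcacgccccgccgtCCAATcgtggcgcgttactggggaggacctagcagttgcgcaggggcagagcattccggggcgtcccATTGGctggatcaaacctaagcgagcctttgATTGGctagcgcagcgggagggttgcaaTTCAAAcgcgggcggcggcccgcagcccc
Top2a: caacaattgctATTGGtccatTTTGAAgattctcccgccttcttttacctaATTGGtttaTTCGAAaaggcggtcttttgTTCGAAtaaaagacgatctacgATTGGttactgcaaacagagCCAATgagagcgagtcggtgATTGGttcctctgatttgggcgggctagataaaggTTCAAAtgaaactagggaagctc
Mki67: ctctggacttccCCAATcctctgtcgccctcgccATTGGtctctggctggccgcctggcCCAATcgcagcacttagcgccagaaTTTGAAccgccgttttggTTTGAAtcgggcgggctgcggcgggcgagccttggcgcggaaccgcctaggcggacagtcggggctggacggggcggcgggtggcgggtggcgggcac
Bub3: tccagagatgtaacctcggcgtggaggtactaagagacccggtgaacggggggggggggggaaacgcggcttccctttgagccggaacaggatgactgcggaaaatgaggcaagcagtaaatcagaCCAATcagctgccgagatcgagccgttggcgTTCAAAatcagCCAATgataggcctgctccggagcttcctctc
Birc5: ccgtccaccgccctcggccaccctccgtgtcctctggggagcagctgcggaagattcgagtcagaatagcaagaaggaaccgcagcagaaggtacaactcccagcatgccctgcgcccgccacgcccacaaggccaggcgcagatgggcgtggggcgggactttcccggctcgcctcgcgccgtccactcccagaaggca

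In the stretches shown, *Top2a* held 4 CHR elements and 5 CCAAT boxes, *Mki67* 2 and 3, *Cdk1* 2 and 2, *Bub3* 1 and 2, and *Ube2c* 1 and 5, of which a pair overlaps on opposite strands. The median ratios were close in genes with and without the letters TTTGAA or TTCGAA. Other forms of the CHR element were not searched. For MCS against control at ZT14 the median log2 ratio was 0.56 in the 36 genes with a CHR element and 0.60 in the 9 genes with a promoter but no such element, which were *Birc5*, *Ccnb1*, *Cenpe*, *Cks2*, *Mad2l1*, *Melk*, *Ncaph*, *Nuf2* and *Nusap1*. In control, the median ratio of ZT2 to ZT14 was 0.80 and 0.89 in these groups. The promoter table held no entry for *Aurkb*, *Ccna2*, *Cdc25c*, *Cdca2*, *Dlgap5*, *Foxm1*, *Kif20a*, *Pbk*, *Smc4* and *Tpx2*.

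Among the 10 regulators of mitotic entry, the summed levels were 117, 123, 69.2 and 109 CPM. Control at ZT14 was the lowest of the 4, and its interval (63.9 to 74.8) did not reach the others. *Mki67*, which encodes the Ki-67 protein that coats mitotic chromosomes and marks cycling cells, was at 83.4, 86.3, 48.0 and 77.6 CPM. *Mki67* alone made up most of the sum of this role in every library, so the low sum in control at ZT14 rests mostly on this gene. Of the list's summed CPM it took between 12.7% and 15.4%. At ZT14 its log2 ratio of MCS to control was 0.69 (0.52 to 0.87), short of 2-fold but clear of counting error, and at ZT2 it was 0.05 (-0.10 to 0.20).

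*Cdk1*, the kinase of mitotic entry, was at 3.46, 2.67, 1.21 and 2.86 CPM. Its partner *Ccnb2* (cyclin B2) was at 3.81, 3.60, 1.76 and 3.89 CPM. Both were more than 2-fold higher in MCS at ZT14, with log2 ratios of 1.18 (0.19 to 2.40) and 1.10 (0.27 to 2.09). *Ccnb1* (cyclin B1) was at 3.35 and 2.44 CPM at ZT2 and at 1.76 and 2.76 CPM at ZT14, with an interval at ZT14 that included no change (0.62, -0.29 to 1.64). In a sampled count, about 26.1% of its positions began a stretch of 75 bases shared with the pseudogene *Ccnb1-ps*. For *Gm12856* and *Gm8416* the shares were 15.3% and 11.9%. None of these is in the expression table, and how reads were assigned among them was not tested. The reads of *Ccnb1* are therefore less certain than those of *Ccnb2*. *Ccna2* (cyclin A2, active in S phase and G2) was at 8.78, 9.05, 5.27 and 7.77 CPM.

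*Foxm1*, the transcription factor that activates late G2/M genes, was at 6.70, 10.7, 5.38 and 7.06 CPM. Like most of the genes it was lowest in control at ZT14. Its log2 ratio of MCS to control was 0.66 (0.18 to 1.17) at ZT2 and 0.38 (-0.16 to 0.95) at ZT14. The kinase genes *Melk* and *Pbk* were both more than 2-fold higher in MCS at ZT14, at 1.84 against 0.659 CPM and at 1.43 against 0.659 CPM. *Cks2*, a small Cdk-binding protein, was nearly level at 3.35 and 3.71 CPM at ZT2 and 4.17 and 3.78 CPM at ZT14. By the count used for *Ccnb1*, the share of its positions was 24.6% for the pseudogene *Gm15452* and 20.2% for *Gm19945*. Neither is in the expression table, and the reads of *Cks2* are uncertain. *Cdc25c*, the phosphatase that activates Cdk1, had between 0.307 and 0.928 CPM and cannot be ordered at this depth.

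The 6 genes of mitotic kinases and chromosomal passenger proteins showed the largest difference between the MCS ratios of ZT14 and ZT2 of the 7 roles. Their sums were 30.4, 24.9, 17.0 and 31.3 CPM. MCS stood above control by a log2 ratio of 0.88 (0.59 to 1.17) at ZT14 and below it at ZT2, by -0.28 (-0.55 to -0.02), a difference of 1.16 (0.78 to 1.54). All 6 genes had higher values in MCS at ZT14, against 48.7% of all genes. At ZT2 2 of the 6 were higher in MCS, against 51.9% of all genes, and 4 were lower. *Tpx2*, with 83 reads in control and 54 in MCS at ZT2, was the 1 gene of the 6 whose own interval excluded no change there. The lower sum at ZT2 is thus not shown for the role as a whole.

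*Tpx2*, which activates Aurora A on the spindle, was at 9.59, 6.26, 2.86 and 7.46 CPM. It was thus higher in MCS at ZT14 (1.36, 0.72 to 2.09) and lower in MCS at ZT2 (-0.61, -1.14 to -0.10). *Aurkb* (Aurora B, the passenger complex kinase) was at 5.77 and 6.61 CPM at ZT2 and at 4.17 and 8.28 CPM at ZT14, and its partner *Cdca8* (Borealin) was at 2.77, 3.83, 2.53 and 5.01 CPM in the same order. Both were highest in MCS at ZT14 and were there above control beyond counting error, by 0.97 (0.42 to 1.58) and 0.96 (0.25 to 1.77). *Birc5* (survivin, another member of that complex) was at 3.70 and 2.20 CPM at ZT2 and 1.65 and 2.56 CPM at ZT14, and passed the 2-fold line in control over time (1.12). *Plk1* (Polo-like kinase) varied least of the 6, between 3.84 and 4.97 CPM.

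Of the 7 genes of the spindle checkpoint and of APC/C activation, all had higher values in MCS at ZT14, against 48.7% of all genes. The interval excluded no change in 4 of the 7, against 18.7% of all genes higher. The sums were 71.1, 69.8, 61.2 and 73.3 CPM. *Bub3* alone made up most of it. *Bub3*, a checkpoint protein that also works in interphase, was at 49.4, 48.7, 49.2 and 52.0 CPM, and its log2 ratio of 0.08 at ZT14 lay within counting error (-0.11 to 0.27). Its checkpoint partner *Bub1b* (BubR1) was at 5.20 and 3.02 CPM at ZT2 and at 1.43 and 4.19 CPM at ZT14. *Bub1b* was higher in MCS at ZT14 (1.49, 0.62 to 2.58) and lower in MCS at ZT2 (-0.77, -1.54 to -0.06), as *Tpx2* was.

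The checkpoint kinase gene *Ttk* (Mps1) was at 1.62 and 1.16 CPM at ZT2 and at 0.879 and 2.15 CPM at ZT14. *Ube2c*, the ubiquitin-conjugating enzyme of the APC/C, was at 3.46 and 3.36 CPM at ZT2 and at 1.43 and 3.48 CPM at ZT14. Control at ZT14 was thus the low library for *Ube2c*, and the other 3 lay between 3.36 and 3.48 CPM. *Cdc20*, the APC/C activator, was at 4.16, 4.64, 2.75 and 4.91 CPM, with a log2 ratio at ZT14 of 0.82 (0.11 to 1.60). *Mad2l1*, the checkpoint inhibitor of Cdc20, had 4.85, 5.22, 3.95 and 4.70 CPM, all within counting error.

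The 6 centromere and kinetochore genes summed to 33.7, 32.0, 18.7 and 26.2 CPM. The MCS library at ZT14 lay between control at ZT14 and the ZT2 libraries. *Cenpf*, an outer kinetochore protein of G2 and mitosis, was at 11.0, 10.9, 5.27 and 7.67 CPM, and was higher at ZT2 than at ZT14 in control (1.04, 0.54 to 1.59) and in MCS (0.50, 0.05 to 0.97). *Cenpe*, the kinesin of the kinetochore, was at 7.16, 7.42, 3.41 and 7.16 CPM, low in control at ZT14 alone. *Cenpa*, the centromeric histone H3 variant, ranged only from 6.26 to 7.51 CPM. *Nuf2* was at 2.31, 1.39, 0.659 and 1.23 CPM, while its Ndc80 complex partner *Ndc80* was at 2.89, 1.97, 1.43 and 1.12 CPM. These 2 microtubule-binding subunits had their highest values in control at ZT2.

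The 10 genes of spindle motors and spindle proteins summed to 58.6, 64.2, 38.0 and 50 CPM. *Hmmr*, which organizes spindle poles, was at 13.6, 14.0, 11.6 and 11.0 CPM and *Aspm*, also of spindle poles, at 9.24, 11.7, 7.36 and 7.98 CPM. Neither differed between MCS and control beyond counting error. *Kif11*, the motor that separates spindle poles, was at 7.74, 9.51, 4.72 and 6.95 CPM and was higher at ZT2 than at ZT14 in control (0.70, 0.14 to 1.3). *Kif15*, a motor that can share this task, was at 7.85, 5.57, 3.41 and 6.44 CPM. *Ckap2l*, a spindle protein, was the 1 gene of this role more than 2-fold higher in MCS at ZT14, at 4.81 against 1.98 CPM (1.24, 0.47 to 2.15). *Kif22*, *Ckap2* and *Kif2c* were, with *Kif15*, the 4 that passed the 2-fold line over time in control. *Kif2c* was low in both ZT14 libraries, at 0.659 CPM in control and 0.614 CPM in MCS, against 1.96 and 1.74 CPM at ZT2.

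**Figure D3:**
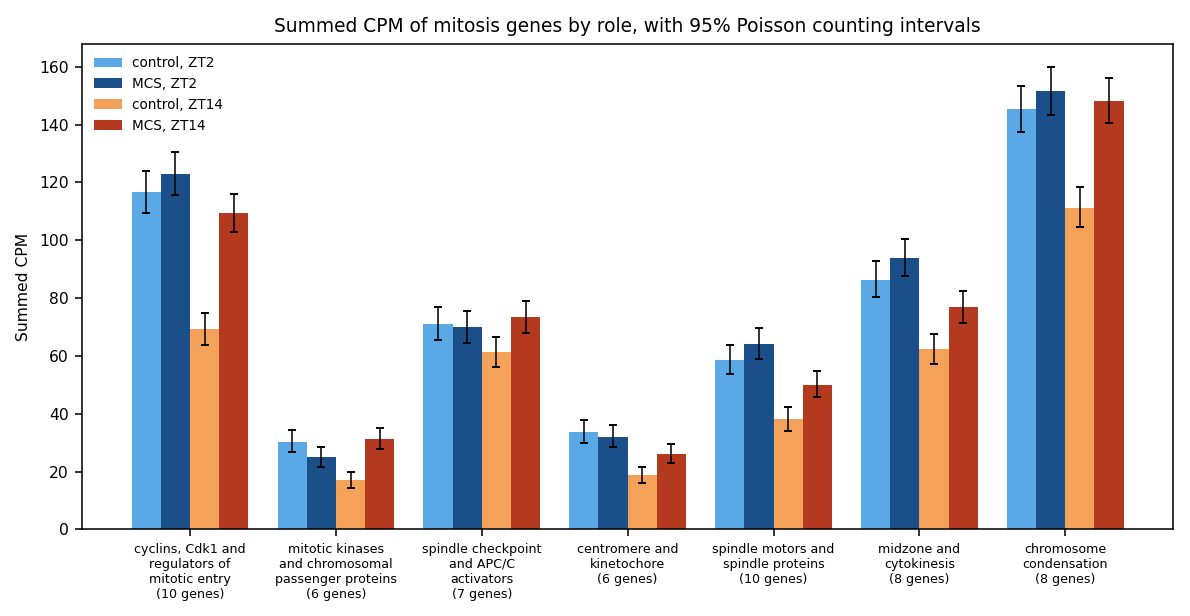
Summed CPM of the mitosis genes of each of the 7 roles in the 4 libraries, with 95% Poisson counting intervals. Control at ZT14 (light orange) is the lowest bar in every role, from 17.0 CPM for kinases and passenger proteins to 111 CPM for chromosome condensation.

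The 8 genes of the spindle midzone and of cytokinesis summed to 86.4, 93.9, 62.3 and 76.9 CPM. *Racgap1*, a subunit of centralspindlin, was at 40.7, 43.4, 31.6 and 35.0 CPM and higher at ZT2 than at ZT14 in both control (0.36, 0.13 to 0.59) and MCS (0.31, 0.10 to 0.53). At ZT14 its log2 ratio of MCS to control was 0.14, within counting error (-0.09 to 0.38). *Prc1*, which bundles midzone microtubules, was above control in MCS at both times, at 9.05 against 5.89 CPM at ZT2 and 6.34 against 2.97 CPM at ZT14. *Kif4*, the motor that Prc1 works with, was at 2.54, 3.13, 1.32 and 3.68 CPM. *Prc1* and *Kif4* were the 2 genes of this role more than 2-fold higher in MCS at ZT14. *Ect2*, which activates RhoA at the cleavage site, was at 6.01, 4.52, 2.86 and 4.29 CPM. The midzone motor gene *Kif20a* was at 6.81, 5.68, 3.30 and 3.89 CPM. *Anln* (anillin, a scaffold of the contractile ring) was at 8.43, 8.47, 5.49 and 7.57 CPM. *Kif20b* (8.02 to 10.7 CPM) and *Kif23* (6.70 to 8.93 CPM) kept narrow ranges.

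The 8 genes of chromosome condensation had the highest sum of any role, 145, 152, 111 and 148 CPM. *Top2a*, the topoisomerase that untangles replicated DNA, was at 29.9, 29.3, 12.9 and 31.9 CPM. It was level in 3 libraries and low in control at ZT14, and had the narrowest interval of any gene past the 2-fold line in this comparison (1.3, 1.0 to 1.63). The condensin genes did not share 1 pattern. *Smc4*, a core subunit, was at 56.9, 62.8, 54.3 and 61.8 CPM, and *Smc2*, its partner, at 22.4, 25.2, 18.1 and 19.7 CPM. *Ncapg*, a subunit of condensin I, was at 2.89, 4.18, 1.10 and 3.37 CPM, with a log2 ratio of MCS to control at ZT14 of 1.54 (0.56 to 2.80). *Ncapd2* and *Ncaph* belong to the same complex. *Ncapd2* was at 19.6, 18.8, 15 and 18.4 CPM, and *Ncaph* at 7.62, 4.41, 5.05 and 4.50 CPM, where control at ZT2 stood above the rest. *Cdca2*, which recruits a phosphatase to chromatin, was highest in MCS at ZT14, at 6.85 CPM against 4.27, 3.83 and 3.52 CPM in the other 3.

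Other parts of the cell cycle were compared by lists of genes outside the 55. For further mitosis genes 54 symbols were listed, and 50 were in the table. The 4 absent symbols, *Knl1*, *Sgo1*, *Sgo2a* and *Pimreg*, are other names of *Casc5*, *Sgol1*, *Sgol2a* and *Fam64a*, which were measured. No gene of this list was therefore missing. The median log2 ratio of MCS to control over these 50 was 0.31 at ZT14 and 0.15 at ZT2. Of the 38 past the minimum at ZT14, 5 were more than 2-fold higher (1.84% of all genes) and 0 lower (1.57%). The 5 were *Casc5*, *Spc25*, *Cdca5*, *Depdc1b* and *Stil*. The summed level of all 50 spanned less, with 464, 477, 456 and 504 CPM. *Ckap5*, the most abundant of them and a microtubule polymerase used outside mitosis too, ranged from 68.7 to 72.1 CPM. The 33 S phase genes had medians of 0.40 at ZT14 and 0.01 at ZT2. Past the minimum at ZT14, 5 of 32 were more than 2-fold higher (1.84% of all genes) and 0 lower (1.57%). They summed to 687 and 711 CPM at ZT2 and 582 and 698 CPM at ZT14, so that control at ZT14 was again lowest. The most abundant of them were *Tyms* (thymidylate synthase) at 269, 293, 249 and 246 CPM and *Pcna* (the polymerase clamp) at 48.5, 43.7, 39.4 and 50.6 CPM, and *Tyms* was not lowest in control at ZT14. *Chaf1a*, of the histone chaperone that works at replication forks, was at 6.70, 6.61, 2.97 and 8.59 CPM, and *Mcm6*, of the replicative helicase, at 17.9, 19.3, 11.3 and 23.3 CPM.

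The 64 histone cluster genes, whose mRNAs mostly accumulate in S phase, had a median log2 ratio of MCS to control of 0.54 at ZT14 and -0.19 at ZT2. Of 63 past the minimum at ZT14, 9 were more than 2-fold higher (1.84% of all genes) and 2 lower (1.57%). Their sum was 962 and 866 CPM at ZT2 and 677 and 978 CPM at ZT14. These genes are near-identical copies, so reads may be divided among them arbitrarily. The 15 APC/C subunit genes were level, with medians of 0.09 and 0.02 and none past 2-fold in any comparison. The 18 genes of the DREAM, RB and E2F group had medians of 0.08 and 0.05. Among them *E2f2* was highest in control at ZT14, at 29.2 CPM against 13.9, 13.8 and 21.0 CPM in the other 3. *E2f1* (7.69 CPM), *E2f8* (3.95 CPM) and *Mybl2* (1.65 CPM) were instead lowest in control at ZT14. *Lin9* was lowest in control at ZT2 (3.70 CPM) and *E2f7* in MCS at ZT14 (0.716 CPM), so the group did not share an order.

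The 6 genes of G1 cyclins and their kinases summed to 544 and 476 CPM at ZT2 and to 499 and 642 CPM at ZT14, and were highest in MCS at ZT14 rather than lowest in control at ZT14. *Ccnd2* (cyclin D2) was at 217, 200, 173 and 246 CPM, and *Ccnd1* (cyclin D1) at 97.0, 64.7, 103 and 134 CPM. The 7 genes of Cdk inhibitors had a median of -0.14 at ZT14. *Cdkn1a* (p21) was at 46.9 and 40.5 CPM at ZT2 and 26.8 and 32.2 CPM at ZT14. It was higher at ZT2 than at ZT14 in control (0.80, 0.57 to 1.04), as the mitosis genes were.

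**Figure D4:**
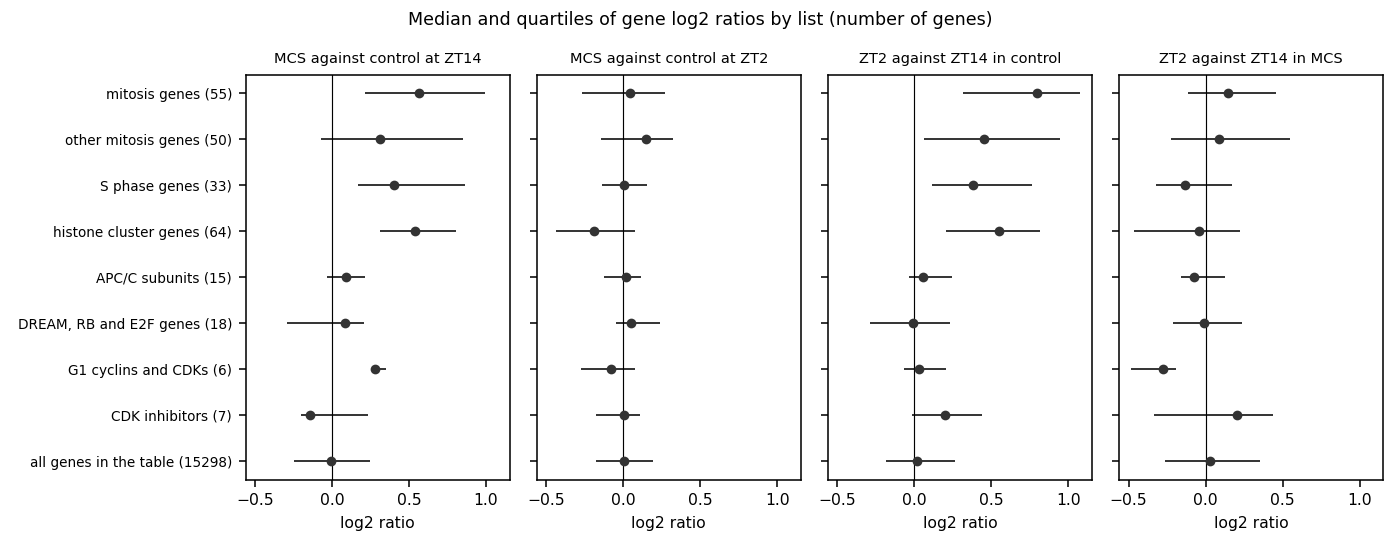
Median (points) and quartiles (lines) of the log2 ratio of single genes for the 55 mitosis genes, 7 further cell cycle lists and all 15298 genes in the table, in the 4 comparisons. The medians of the mitosis genes are 0.56, 0.04, 0.80 and 0.15, and those of all genes lie between -0.0042 and 0.029.

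Markers of other cell types also differed between the libraries. Fibroblast markers (5 of 6 measured) summed to 15.5, 19.7, 4.06 and 9.51 CPM, with *Pdgfra* at 0 in all libraries but MCS at ZT2, and the 5 mesothelial markers to 8.89, 10.4, 3.19 and 4.50 CPM. These 2 sums were lowest in control at ZT14, as that of the mitosis genes was, with 4 of the 5 fibroblast and 3 of the 5 mesothelial markers lowest there. Of all genes above a mean of 1 CPM, 23.0% were lowest there. In that library the 2 sums rest on 37 and 29 reads. Myeloid precursor markers (5 of 5 measured) summed to 40.2, 53.9, 31.7 and 53.9 CPM. Their sum was lowest in control at ZT14, but none of the 5 markers was lowest there by itself, with *Elane* at 0 in control at ZT2 and in MCS at ZT14 and *Mpo* at 0 in MCS at ZT14. The red blood cell markers (7 of 10 measured) summed to 3.35, 36.7, 1.76 and 112 CPM, and eosinophil markers (3 of 5 measured) to 57.6, 67.1, 50.9 and 81.9 CPM. The 3 eosinophil markers did not move together. *Il5ra* was at 51.0, 49.1, 48.9 and 33.9 CPM, lowest in MCS at ZT14. *Ccr3* (5.31, 12.2, 1.32 and 33.8 CPM) and *Siglecf* (1.27, 5.80, 0.659 and 14.1 CPM) were lowest in control at ZT14 and highest in MCS at ZT14. B cell markers (6 of 7) ran the other way and were highest in control at ZT14, at 1149, 1125, 1400 and 965 CPM. The 7 markers of large peritoneal macrophages, the resident population, summed to 8994, 7985, 8227 and 10398 CPM. T cell markers summed to 43.7, 49.0, 32.6 and 33.2 CPM, and natural killer cell markers to 33.3, 45.5, 18.45 and 18.51 CPM. Both sums were highest in MCS at ZT2 and lowest in control at ZT14, there only just below MCS at ZT14. In control, the natural killer sum had a log2 ratio of ZT2 to ZT14 of 0.85 (0.57 to 1.13). Dendritic cell (15 to 24.5 CPM), neutrophil (11.2 to 81.1 CPM) and mast cell markers (952 to 2240 CPM) were also highest in MCS at ZT2. So were small peritoneal macrophage and monocyte markers (2273 to 2831 CPM). The part of these cells in the levels of the mitosis genes was not tested.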

How the data were processed

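The members and lists were chosen with earlier results of these data known. Per the submitters' processing notes and the study's methods, the authors trimmed reads with Trimmomatic 0.38, estimated gene counts with RSEM 1.3.0 and Bowtie 2 on mm10, and deposited CPM values normalized with edgeR; the annotation was not stated in the labels or methods. All values were whole multiples, within 0.05 read, of 1 read per library, and recovered reads may include rounding by the authors. Log2 ratios used CPM plus 0.1. The criterion was a log2 ratio beyond 1 with a log2 mean above 0. Counting intervals were exact conditional binomial (95%), Poisson for sums. With 1 library per condition no single comparison was tested. An alternative was an edgeR quasi-likelihood count test on recovered reads (time and MCS terms, at least 40 reads), which called 24 genes for MCS and 295 for time. Genes that could be named were the 3 most abundant of each role, those past the criterion in any comparison and those nearest the line, and from each list the 2 most abundant and those past the criterion; other members and markers were named after their values were seen. Lengths and shared stretches came from GENCODE M21 and promoters from RefSeq (GRCm38.p6). Scripts were tested on simulated data. Software was Python 3.11.15, numpy 2.4.6, pandas 2.3.3, scipy 1.17.1, matplotlib 3.10.9, R 4.3.3 and edgeR 4.0.16.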

Additional observations from a re-analysis of the deposited data

Results flagged for a closer look

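*Tpx2* and *Bub1b* stood out because MCS and control differed in opposite directions at the 2 times, each beyond counting error. For *Tpx2* the log2 ratio of MCS to control was 1.36 at ZT14 and -0.61 at ZT2. For *Bub1b* it was 1.49 at ZT14 and -0.77 at ZT2. With 1 library per condition the difference between the times was not tested.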

How the results depend on the processing

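No paired analysis was possible because each condition has 1 library, and for the same reason no library could be left out within a condition. Of 90 recomputed values, 67 stayed within the limits set for them and 23 moved. A reversal could be recorded only for sums and medians of comparisons whose main sum interval excluded no change, and 0 were. Counts, motif shares and the values for MCS at ZT2 could not be recorded as reversed. At a pseudocount of 1 CPM the count of genes past 2-fold was 5 for MCS at ZT14 (0.897% of all genes higher) and 5 for time in control (1.16%). For time in MCS it was 0, against 2.15% of all genes higher and 1.12% lower. The medians at this pseudocount were 0.44 for MCS at ZT14 and 0.61 for time in control. With a log2 mean above 3 the counts of these 3 comparisons were 1, 2 and 0, against 0.578%, 0.915% and 1.06% of all genes higher. At 1.5-fold they were 24 for MCS at ZT14, all higher (6.32% of all genes higher, 5.75% lower), and 33 for time in control, all higher (7.44% and 4.34%). At that fold 10 genes passed for MCS at ZT2, 4 higher and 6 lower (4.37% and 3.41%), and 10 for time in MCS, 7 higher and 3 lower (10.2% and 7.69%). Where the counting interval replaced the fold, 5 genes were called for MCS at ZT2, 2 higher and 3 lower (11.5% and 11.0% of all genes). For time in MCS 11 were called, 10 higher and 1 lower (21.9% and 22.2%). For time in MCS the count was 2 with a pseudocount of 0.01 CPM, with no minimum, or with scaling by library totals, and that scaling gave a sum of 0.19 and a median of 0.21. Without the 3 most abundant genes the log2 ratio of the sum was 0.52 for MCS at ZT14 and 0.64 for time in control, and without the 5 most abundant, chosen after seeing the data, 0.63 for the latter. In the 200 bases before the start, 43.8% of promoters held a CHR element, against 9.30% of those of other genes. The count test called 0 mitosis genes also without a filter and with DESeq2-type size factors. The median log2 ratio of all genes above the minimum was at most 0.0738 in size under any scaling. Depth limits single genes of few reads, and causes of these shifts were not tested.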
